A study of Homo sapiens with 16 samples.

Results

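The subject is the response of ischemic LN229 cells to VX745, an inhibitor of the p38α kinase. LN229 is an established line of human glioblastoma cells. The 4 libraries compared are ischemic culture with VX745 (2 libraries) and ischemic culture with DMSO, the solvent used as vehicle (2 libraries), out of 16 libraries in the series, and they were chosen by their labels and by nothing measured. All 14024 genes of the table were tested. The study sequenced RNA in 2 experiments with 2 libraries per group. The first held untreated cells in regular and in ischemic culture, and the second held DMSO, VX745 and MK25 (an inhibitor of the kinase MK2) in both cultures. Regular culture was complete medium with 10% fetal bovine serum. The ischemic condition combined about 1% oxygen with low nutrients, at 1% serum, 0.1 mM glutamine and 2 mM glucose. The methods give 2 μM for VX745 and 10 μM for MK25, but neither the dose nor the hours of treatment for the sequenced cells is stated in the sources used here. The labels of the sequenced cells give the line, culture and treatment and mention no introduced allele, and all groups are the same line. The labels do not say whether the libraries of a group came from separate cultures, so p-values measure the spread between these libraries, which may be technical.

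p38α is a stress-activated protein kinase. The kinases MAP2K3 and MAP2K6 (MKK3 and MKK6) phosphorylate it, and it in turn phosphorylates MK2, encoded by *MAPKAPK2*. Active MK2 phosphorylates proteins such as tristetraprolin (*ZFP36*) that bind AU-rich elements in the 3′ untranslated regions (UTRs) of short-lived mRNAs. This is a known way in which p38 keeps mRNAs of cytokines, chemokines and cyclooxygenase 2 from decay. p38 also acts through other kinases, including MSK1 and MSK2, on the transcription of immediate early genes.

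The deposited values are log2 normalized CPM (read counts scaled to a common library size), called levels here. A difference of 1 between levels is a doubling. The libraries of the second experiment held between 20122017 and 37562668 reads on the listed genes, and those of the first between 22346073 and 28373993. The ischemic DMSO libraries held 27239609 and 32850374 reads, and the ischemic VX745 libraries 33704896 and 31694666. A gene with 3 reads sits at a level between -2.71 and -2.23 in the second experiment. The median gap between the libraries of a group was 0.083 with DMSO and 0.067 with VX745 in ischemic culture, and the counts of each pair differed beyond sampling noise (chi-square per degree of freedom 4.5 and 3.29), so no pair was a duplicate. Of the markers of mesenchymal glioblastoma 7 of 8 were measured and of the glial markers 8 of 8, while none of 5 endothelial and none of 4 epithelial markers was measured. Of 6 immune markers only *CD68* and *ITGAM* were measured, and the defining leukocyte gene *PTPRC* was not. Of 5 neuronal markers 3 were measured (*SYT1*, *GAD1* and *SNAP25*), and *SYT1* (-0.29) and *GAD1* (-0.23) passed as lower below the fold threshold. Their summed level was 6.69 and 6.67 with DMSO and 6.43 and 6.42 with VX745, and their part in the results was not tested. *OLIG2* was the only marker called, with levels of 2.02 and 2.35 with DMSO and 2.79 and 2.85 with VX745, a call that was lost without DMSO replicate 1 (log2 fold change 0.47) and after quantile normalization (0.49). VX745 acts on a protein, so no transcript checks these labels directly.

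The mRNAs of the targeted kinases were present in every group. *MAPK14*, which encodes p38α (chr6:36027808-36124214, GRCh38), had levels of 5.78 and 5.76 in ischemic DMSO and of 6.16 and 6.16 in ischemic VX745. Both VX745 libraries lay above both DMSO libraries. The log2 fold change was 0.39 ± 0.06 (SE, n = 2 per group; limma adjusted p = 8.72e-05), under the 1.5-fold asked of a called gene. In regular culture *MAPK14* was at 6.24 and 6.21 with DMSO and at 6.25 and 6.28 with VX745, so the ischemic VX745 level was close to those of regular culture. The effect of VX745 on *MAPK14* differed between cultures by 0.35 (adjusted p = 0.00984). With MK25 *MAPK14* was at 6.03 and 5.95 in ischemic culture and at 6.22 and 6.18 in regular culture, and in untreated cells at 5.38 and 5.38 when ischemic and at 5.99 and 6.05 when regular. *MAPKAPK2*, which encodes MK2, was at 7.13 and 7.23 in ischemic DMSO and at 7.0 and 6.97 in ischemic VX745. This lowering of 0.20 on the log2 scale passed the test but not the fold threshold (log2 fold change -0.20 ± 0.06, adjusted p = 0.0171). It stood at 7.31 and 7.29 with DMSO and at 7.30 and 7.39 with VX745 in regular culture, at 7.09 and 6.98 with MK25 in ischemic culture, at 7.35 and 7.32 with MK25 in regular culture, and at 6.89 and 6.86 (ischemic) and 7.16 and 7.25 (regular) in untreated cells.

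In ischemic culture VX745 raised 610 genes (4.35% of all genes tested) and lowered 127 (0.906%). Together these were 5.26% of genes. A called gene had to change at least 1.5-fold and have a limma p, adjusted by Benjamini-Hochberg, under 0.05. Without the fold threshold 1958 genes (14.0%) passed as higher and 2093 (14.9%) as lower, so the excess of rises lay among the larger changes. Only 159 of the raised and 34 of the lowered genes changed at least 2-fold. The libraries of the groups did not overlap for 70.1% of all genes (34.4% higher and 35.7% lower with VX745), so a lack of overlap by itself marks little here.

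The raised genes were mostly of low abundance. Their median level over the 4 libraries was 1.86, against 4.09 for the lowered genes and 4.69 for all genes, and 71.0% of the raised genes lay under a level of 3 (28.2% of all genes). Of the 3256 genes with a level between 0 and 3, 11.6% were raised and 1.5% lowered. Of the 3780 genes above 6, 0.423% were raised and 1.03% lowered, so among abundant mRNAs falls were the more frequent. Long noncoding RNAs made up 11.3% of the raised, 7.87% of the lowered and 6.0% of all genes. The split between directions depends on the scaling of the libraries. Raised genes were 82.8% of those called on the deposited scale, 62.6% after quantile normalization (322 raised and 192 lowered), and 93.1% when the recovered reads were scaled by their totals (1086 raised and 81 lowered), which moved the median of all genes to 0.123. The 10 most abundant genes took 6.25% and 6.32% of the reads with DMSO and 5.66% and 5.71% with VX745. In bulk RNA fewer cells of a kind and less RNA per cell cannot be told apart.

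The 12 largest falls were taken among genes with a mean level of at least 3 over the 4 libraries. *IGFBP3*, which encodes the most abundant carrier of insulin-like growth factors in serum, came first (chr7:45912245-45921272). It was at 9.08 and 9.02 with DMSO and at 7.38 and 7.42 with VX745, with a wide gap between the groups and little within them. The level fell by 1.65 ± 0.06 on the log2 scale, a 3.14-fold fall (adjusted p = 4.39e-11), the smallest adjusted p among the 12. *SPRR2D*, a small proline-rich protein of the cornified envelope, was at 5.76 and 5.93 with DMSO and at 4.17 and 4.28 with VX745, which is 3.08-fold lower (adjusted p = 1.59e-06), though reads may be split among the near-identical genes of its family. *GPRC5A*, an orphan receptor induced by retinoic acid (chr12:12891562-12917937), was at 9.09 and 9.08 with DMSO and at 7.78 and 7.74 with VX745, which is 2.5-fold lower (adjusted p = 5.3e-10). The microRNA gene *MIR614* (chr12:12915829-12915918) lies within the span of *GPRC5A*. Its levels of 3.89 and 3.56 with DMSO and 2.54 and 2.49 with VX745 (adjusted p = 5.4e-05) are therefore uncertain, since reads of the host gene cannot be told apart from its own. The DMSO and VX745 libraries of all 4 genes were apart, which the choice of genes required.

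The orphan nuclear receptors of the NR4A family, which are immediate early genes, were lowered for 2 of 3 members. *NR4A1* was at 6.83 and 6.88 with DMSO and at 5.54 and 5.39 with VX745 (2.62-fold lower, adjusted p = 1.49e-09). *NR4A2* was at 5.09 and 5.17 with DMSO and at 3.69 in both VX745 libraries (2.72-fold lower, adjusted p = 2.33e-08). *NR4A3* had a log2 fold change of -0.24 and did not pass. *FST*, which encodes the activin-binding protein follistatin, was at 4.79 and 4.76 with DMSO and at 3.5 and 3.64 with VX745 (2.31-fold lower, adjusted p = 1.59e-06). *GDF15*, a stress-induced cytokine of the TGF-beta superfamily, was at 8.80 and 9.09 with DMSO and at 7.71 and 7.63 with VX745 (2.42-fold lower, adjusted p = 5.05e-08). The stress-inducible chaperone *HSPA6* was at 5.24 and 5.21 with DMSO and at 4.27 and 3.11 with VX745. Its fall (2.9-fold, adjusted p = 0.000178) was uneven, since the VX745 libraries differed from each other more than the higher of them differed from DMSO.

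**Figure D1:**
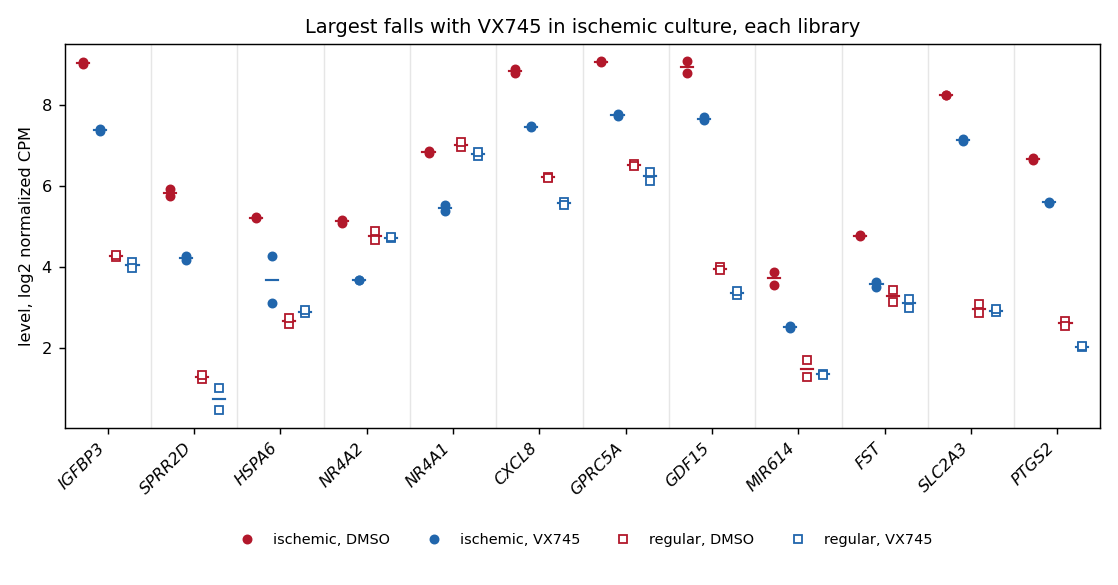
Levels (log2 normalized CPM) of the 12 genes with the largest falls under VX745 in ischemic culture, with 1 point per library, filled for ischemic and open for regular culture, and a short line at the mean of the 2 libraries of a group. *IGFBP3* drops from 9.08 and 9.02 to 7.38 and 7.42 in ischemic culture. The 12 genes were chosen to have both VX745 libraries below both ischemic DMSO libraries, so that separation is not a result.

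Inflammatory mRNAs with AU-rich elements were lower with VX745. Of 22 listed cytokines, chemokines and related genes 18 were measured, of which 7 were called lowered and 0 raised, and 10 passed as lower and 1 as higher without the fold threshold. Their median log2 fold change was -0.61, against 0.003 over all genes. For this and the lists below, the shares over all genes were 4.35% raised and 0.906% lowered. The shares passing without the fold threshold were 14.0% higher and 14.9% lower. *CXCL8*, the neutrophil chemokine interleukin 8 (chr4:73740569-73743716), was at 8.91 and 8.81 with DMSO and at 7.48 and 7.46 with VX745, well apart (2.61-fold lower, adjusted p = 1.41e-08). *PTGS2*, which encodes cyclooxygenase 2, the inducible enzyme of prostaglandin synthesis, was at 6.65 and 6.71 with DMSO and at 5.62 and 5.59 with VX745 (2.11-fold lower, adjusted p = 2.03e-07). *IL11*, a cytokine of the interleukin 6 type, was at 6.57 and 6.66 with DMSO and at 5.72 and 5.81 with VX745 (log2 fold change -0.85, adjusted p = 6.43e-08).

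The alarmin *IL1A* was at 5.32 and 5.25 with DMSO and at 4.29 and 4.4 with VX745 (log2 fold change -0.94, adjusted p = 5.55e-05). *CSF2*, which encodes the colony-stimulating factor GM-CSF, was low and its DMSO libraries differed, at 2.93 and 2.50 against 1.57 and 1.65 (log2 fold change -1.11, adjusted p = 0.00194). The chemokine *CXCL1* was at 5.6 and 5.80 with DMSO and at 4.90 and 4.88 with VX745 (log2 fold change -0.81, adjusted p = 0.000647), and its relative *CXCL3* had a log2 fold change of -0.77 (adjusted p = 0.00132). These genes had no library of one group within the range of the other. Smaller falls, under 1.5-fold, passed the test for *IL1B* (-0.55), *VEGFA* (-0.51) and *LIF* (-0.38). The list did not move as a whole, since *CSF1*, a macrophage growth factor, passed as higher (0.53), and *PLAUR* (-0.05), *TNFAIP3* (0.06) and *CCL2* (0.31) did not pass. *IL6* had a log2 fold change of -0.62 at levels of 0.99 and 1.21 with DMSO and 0.59 and 0.37 with VX745, and did not pass (adjusted p = 0.155). *TNF*, also on the list, was not among the genes measured, so its response cannot be read here.

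The sequence behind the name of this list could be looked at directly. The nonamer TTATTTATT, a core of AU-rich elements (with U for T in the mRNA), was searched in the 3′ UTR of 1 canonical GENCODE transcript per gene, on the sense strand only, since the element acts in RNA. Below are the 8 largest falls among lowered genes with a level of at least 3 that hold it, each with the first nonamer after the stop codon in capitals and 9 bases on either side, in GRCh38.
CXCL8 (chr4:73742665-73742691, plus strand): tgtaaagtaTTATTTATTtgaatctac
GDF15 (chr19:18389055-18389081, plus strand): ataagtctgTTATTTATTattaattta
FST (chr5:53486136-53486162, plus strand): agtgtatgcTTATTTATTtggggggaa
SLC2A3 (chr12:7920928-7920954, minus strand): acttgagttTTATTTATTttatcctct
PTGS2 (chr1:186674318-186674344, minus strand): tgatcatatTTATTTATTtatatgaac
KLF5 (chr13:73077178-73077204, plus strand): tgtttatctTTATTTATTttgtggtaa
DDIT3 (chr12:57516617-57516643, minus strand): attgtacatTTATTTATTactgtccct
IL11 (chr19:55365948-55365974, minus strand): agccagatcTTATTTATTtatttattt
The position differs from gene to gene. In *PTGS2* the nonamer begins at base 18 after the stop codon, and in *KLF5* at base 1301 in a UTR of 1652 bases. *IL11* holds 6 overlapping copies, *FST* 3, and the other 6 genes shown 1 each. The short UTRs of *GDF15* (241 bases) and *DDIT3* (216 bases) hold 1 copy each.

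Over all genes with a 3′ UTR in this annotation, 9.93% held the nonamer (1246 of 12542). It was in 23 of the 102 lowered genes with a UTR (22.5%) and in 53 of 514 raised genes (10.3%). Lowered genes had shorter UTRs, with a median of 913 bases against 1368 for all genes and 1640 for raised genes, so the shares are also given in 3 classes of UTR length that split all genes evenly. Among short UTRs of up to 782 bases the shares were 17.0% of lowered, 0.935% of raised and 2.48% of all genes. In the middle class they were 22.9%, 7.21% and 7.68%, and among long UTRs of over 2235 bases 35.0%, 18.6% and 19.6%. The shorter pentamer ATTTA, which every nonamer contains, occurred at a median of 2.25 per kilobase in lowered, 1.42 in raised and 1.75 in all UTRs. UTRs were found for 80.3% of the lowered and 84.3% of the raised genes. A match is a description of letters and says nothing of whether a protein binds there, and most lowered genes do not hold the nonamer. *IL1A*, which was lowered, has none in its UTR of 1142 bases, whereas *PLAUR* and *TNFAIP3*, with levels that did not pass the test, hold 1 each.

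**Figure D2:**
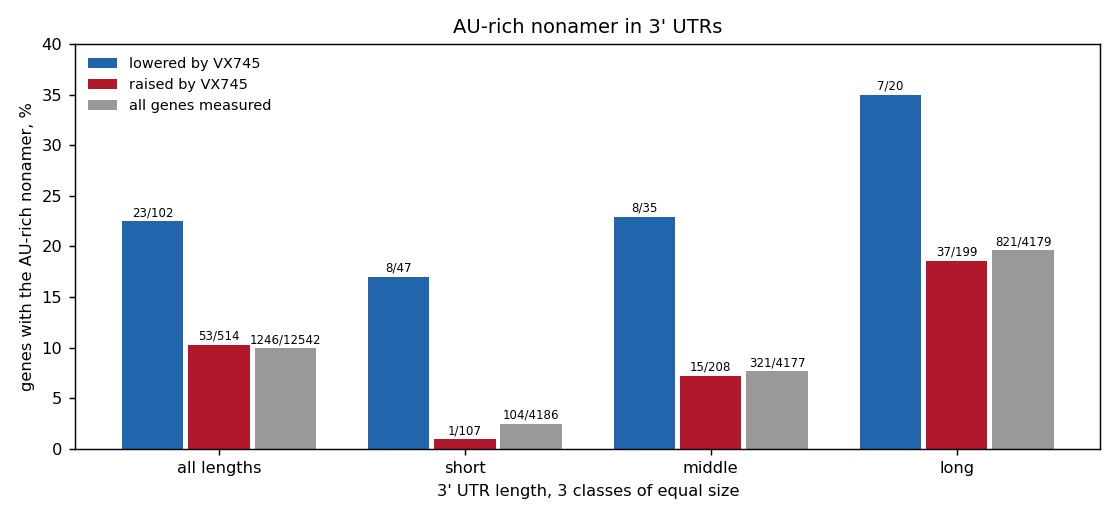
Percent of genes whose 3′ UTR holds the nonamer (vertical axis, from 0), over all UTR lengths and in 3 classes of length, for genes lowered by VX745, genes raised by VX745 and all genes measured. The bar of the lowered genes is the tallest in each class, at 17.0%, 22.9% and 35.0%.

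Of 10 AU-rich element binding proteins 0 were called either way, with a median of -0.12. *ZFP36* was at 4.38 and 4.49 with DMSO and at 4.29 and 4.35 with VX745 (adjusted p = 0.477), and its relative *ZFP36L2* passed as higher by less than 1.5-fold (0.47). *HNRNPD*, which encodes AUF1 (-0.25), and *TIAL1* (-0.30) passed as lower below the threshold. Of 9 measured MAPK phosphatases, which switch MAP kinases off, 1 was lowered and 0 were raised. This was *DUSP10*, a phosphatase of p38 and JNK, at 7.33 and 7.38 with DMSO and at 6.77 and 6.71 with VX745 (log2 fold change -0.61 ± 0.07, adjusted p = 1.55e-05). It is close to the threshold, and the call was lost after quantile normalization (-0.51) and with totals as the scale (-0.49).

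Immediate early genes split between directions. Of 25 measured 6 were called lowered and 2 raised, with a median of -0.20. Besides *NR4A1* and *NR4A2* the lowered genes were *JUNB*, *KLF5*, *EGR2* and *EGR3*. *KLF5*, a zinc finger factor of proliferating cells, was at 7.72 and 7.85 with DMSO and at 6.89 and 6.86 with VX745 (log2 fold change -0.91, adjusted p = 9.9e-08). *JUNB*, a partner in the AP-1 dimer, was at 6.32 and 6.70 with DMSO and at 5.56 and 5.51 with VX745 (log2 fold change -0.97, adjusted p = 2.75e-05). The log2 fold changes of the growth factor-induced *EGR2* and *EGR3* were -0.74 (adjusted p = 0.000965) and -0.62 (adjusted p = 3.71e-05), the latter lost with totals as the scale (-0.50). *JUN*, another AP-1 subunit of the same family, rose. It was at 8.47 and 8.78 with DMSO and at 9.52 and 9.31 with VX745, opposite to *JUNB* (log2 fold change 0.79 ± 0.09, adjusted p = 5.11e-06). *CCN2*, a matrix-associated growth factor, also rose, from 5.43 and 5.50 to 6.27 and 6.31 (log2 fold change 0.82, adjusted p = 1.45e-06). *FOS* (-0.30), *FOSB* (-0.26) and *ATF3* (-0.20) did not pass.

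Among 17 NFkB subunits and feedback targets 1 was lowered and 0 raised, with 9 lower and 0 higher without the fold threshold and a median of -0.25. The one called was *NFKBIZ*, a nuclear IκB protein that coactivates cytokine genes, at 3.53 and 3.65 with DMSO and at 2.92 and 2.84 with VX745 (adjusted p = 0.000149). Among 15 measured ERK feedback targets 0 were called either way (median -0.07). Of 7 measured ligands of the EGF receptor family 2 were raised and 1 lowered (median 0.41, or 0.18 after quantile normalization). Without the fold threshold 2 passed as higher and 2 as lower. The summed level of the 7 ligands was lower with VX745, at 10.38 and 10.34 with DMSO and at 9.86 and 9.82 with VX745. *HBEGF*, heparin-binding EGF, rose from 3.76 and 3.97 to 4.59 and 4.70 (log2 fold change 0.78, adjusted p = 0.000295), and *NRG2*, a neuregulin, had a log2 fold change of 0.82 (adjusted p = 0.000571). *EREG*, epiregulin, was at 1.02 and 1.03 with DMSO and at -0.21 and -1.03 with VX745 (log2 fold change -1.65 ± 0.41, adjusted p = 0.00637), a call on a weakly expressed gene that was lost without VX745 replicate 2 (-1.24).

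Genes of the hypoxic, glycolytic and integrated stress responses, most of which rose with ischemia in the first experiment, were lower with VX745 by small amounts. Of 25 hypoxia targets 2 were lowered and 1 raised, and 14 passed as lower and 1 as higher without the fold threshold (median -0.28). *ANGPTL4*, an inhibitor of lipoprotein lipase, was at 8.31 and 8.34 with DMSO and at 7.41 and 7.37 with VX745 (log2 fold change -0.94, adjusted p = 1.66e-06). *DDIT4* (REDD1), an inhibitor of mTORC1, was among the most abundant of these mRNAs in each library, at 12.03 and 12.11 with DMSO and at 11.28 and 11.23 with VX745. Its log2 fold change was -0.82 ± 0.05 (adjusted p = 4.05e-08), and after quantile normalization -0.52, under the fold threshold. The hypoxia marker *NDRG1* was at 11.35 in both DMSO libraries and at 10.92 and 10.87 with VX745 (-0.46, adjusted p = 4.07e-05), and *CA9* did not pass (-0.04). *CA12*, another carbonic anhydrase, was called raised on levels of 0.83 and 0.21 with DMSO and 1.36 and 1.39 with VX745 (adjusted p = 0.0454), and lost the call without DMSO replicate 2 (0.54), VX745 replicate 1 (0.87) or VX745 replicate 2 (0.84), after quantile normalization (0.64) and without the variance trend (0.85).

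Of 22 genes of glycolysis 1 was lowered and 0 were raised, and 16 passed as lower and 0 as higher without the fold threshold (median -0.26). *SLC2A3*, which encodes the high-affinity glucose transporter GLUT3, was at 8.26 and 8.27 with DMSO and at 7.12 and 7.18 with VX745 (2.17-fold lower, adjusted p = 2.33e-08). *HK2*, hexokinase 2, was at 10.44 and 10.46 with DMSO and at 9.98 and 9.91 with VX745 (-0.51, adjusted p = 3.71e-05). *LDHA*, which makes lactate, was at 12.06 and 12.05 with DMSO and at 11.70 and 11.72 with VX745 (-0.35, adjusted p = 0.00151). The groups were apart for these 3 genes, but the median of the list depended on the scaling and was -0.03 after quantile normalization and -0.14 with totals as the scale, where all genes had a median of 0.123. The hypoxia median was -0.11 and -0.18 under the same settings.

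Of 29 measured targets of ATF4 and CHOP, the transcription factors of the integrated stress response, 3 were lowered and 0 raised, and 18 passed as lower and 0 as higher without the fold threshold (median -0.27, or -0.07 after quantile normalization). *DDIT3*, which encodes CHOP itself, was at 6.49 and 6.58 with DMSO and at 5.63 and 5.64 with VX745 (log2 fold change -0.90 ± 0.08, adjusted p = 7.15e-07). *GDF15* and *DDIT4*, described above, were the others called. *ATF4* had levels of 10.29 and 10.31 with DMSO and 9.93 and 9.97 with VX745 (-0.35, adjusted p = 0.000494). *TRIB3*, a pseudokinase target of CHOP (-0.43), and *ASNS*, asparagine synthetase (-0.29), passed as lower below the fold threshold, and *CHAC1* (-0.27) did not pass.

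Among 22 chaperones of the endoplasmic reticulum (ER) and related genes 1 was lowered and 0 raised, and 14 passed as lower and 0 as higher at any size (median -0.20, or -0.05 after quantile normalization and -0.08 with totals as the scale). The called gene was *XBP1*, the factor that IRE1 activates by splicing, at 8.38 and 8.47 with DMSO and at 7.72 and 7.78 with VX745 (log2 fold change -0.68, adjusted p = 1.25e-06), lost after quantile normalization (-0.52) and with totals as the scale (-0.56). *HSPA5*, the ER chaperone BiP, was at 10.59 and 10.63 with DMSO and at 10.09 and 10.11 with VX745 (-0.51, adjusted p = 4.27e-06). Of 11 measured heat shock genes 2 were lowered and 0 raised, with 9 lower and 0 higher at any size (median -0.36, or -0.30 and -0.24 under the same settings). In the first experiment ischemia itself lowered 7 of these 11 genes at least 2-fold and raised 0. *DNAJB1*, a cochaperone of HSP70, was at 9.54 and 9.56 with DMSO and at 8.94 and 8.30 with VX745 (log2 fold change -0.92, adjusted p = 3.61e-05). As for *HSPA6*, VX745 replicate 2 was the lower library. *HSPA8*, the constitutive HSP70, had a log2 fold change of -0.67 (adjusted p = 6.62e-07), which fell short of 1.5-fold after quantile normalization (-0.45) and with totals as the scale (-0.55). Of 20 targets of NRF2, the factor of the antioxidant response, 1 was lowered and 0 raised (median -0.24, or -0.09 and -0.12). At any size 13 passed as lower and 0 as higher. The called gene was *HMOX1*, heme oxygenase 1, at 4.30 and 4.39 with DMSO and at 3.69 and 3.66 with VX745 (adjusted p = 3.79e-05), with a log2 fold change of -0.67, or -0.56 and no call with totals as the scale.

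**Figure D3:**
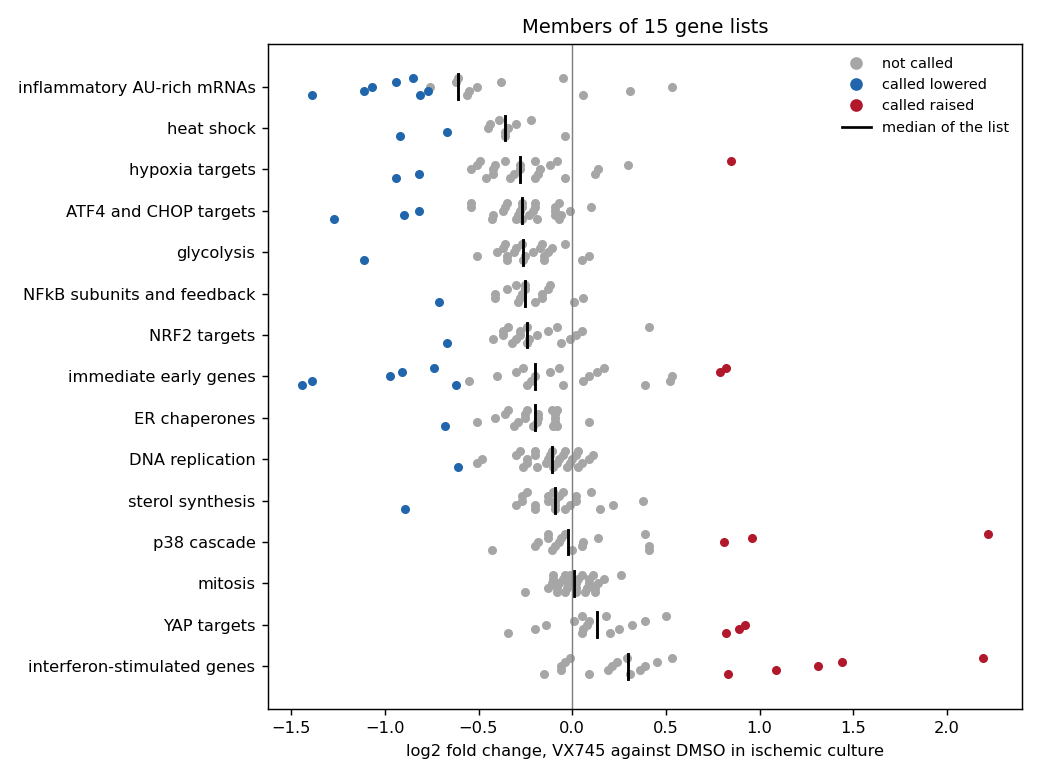
Log2 fold change of VX745 against DMSO in ischemic culture for the measured members of 15 gene lists, with 1 point per gene, coloured by whether the gene was called raised, called lowered or neither, and a bar at the median of each list. The inflammatory AU-rich mRNAs have a median of -0.61 and reach -1.39, whereas mitosis stays between -0.25 and 0.26, and the glycolysis median of -0.26 shrinks to -0.03 after quantile normalization.

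Of the genes reported here with a mean level of at least 3 over the 4 libraries, a kinase that activates p38 had the largest rise. Of the 20 genes of the p38 cascade 3 were raised and 0 lowered, with a median of -0.02, beside 4.35% raised over all genes. *MAP2K6*, which encodes the p38 activator MKK6 (chr17:69414697-69553865), was at 2.02 and 2.21 with DMSO and at 4.32 and 4.35 with VX745. The 2 groups were more than 2 log2 units apart. Its DMSO libraries lay under 3, so *MAP2K6* passed the level filter only through its VX745 libraries. The log2 fold change was 2.22 ± 0.10, a 4.66-fold rise (adjusted p = 4.15e-10). *MAP2K3*, which encodes the other main activator MKK3, was at 5.41 and 5.39 with DMSO and at 6.20 and 6.22 with VX745 (log2 fold change 0.81 ± 0.06, adjusted p = 1.83e-07). *MAPK13*, which encodes p38δ, a form of p38 other than the α form named as the target, rested on 10 and 11 reads with DMSO and 24 and 29 with VX745 (log2 fold change 0.96, adjusted p = 0.0417). Its call was lost without any 1 of the 4 libraries (DMSO replicate 1, 1.01; DMSO replicate 2, 0.91; VX745 replicate 1, 1.12; VX745 replicate 2, 0.80), after quantile normalization (0.69) and with the replicate number as a block (0.96). *TAB1*, an adaptor that binds p38α and the kinase TAK1 (0.41), and *RPS6KA4*, which encodes MSK2 (0.41), passed below the fold threshold, as did the lower *MKNK2* (-0.43), a kinase of the translation factor eIF4E. The JNK and p38 activator *MAP2K4* did not pass (-0.13).

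The other large rises were among genes of varied function. *SRGAP3* and *LRRC20* also lay under 3 with DMSO and passed the level filter only through their VX745 libraries. The filter took in the VX745 libraries, so a rise helped any gene of this group to pass it. *SRGAP3*, a GTPase-activating protein of Slit-Robo signalling, was at 2.40 and 2.45 with DMSO and at 4.07 and 4.04 with VX745 (3.09-fold, adjusted p = 4.05e-08). *LRRC20*, a leucine-rich repeat gene, was at 2.11 and 2.45 with DMSO and at 3.82 and 3.81 with VX745 (2.91-fold, adjusted p = 5.45e-07). *CREB5*, a bZIP factor of the CREB and ATF family, was at 5.06 and 4.97 with DMSO and at 6.33 and 6.35 with VX745 (2.5-fold, adjusted p = 5.67e-08). These groups did not come near each other. *HEG1*, a membrane protein that binds the KRIT1 complex of endothelial junctions, was at 4.70 and 4.84 with DMSO and at 5.92 and 5.93 with VX745 (2.22-fold, adjusted p = 6.43e-08). *PRECSIT*, a long noncoding RNA, was at 4.58 and 4.49 with DMSO and at 5.62 and 5.71 with VX745 (2.19-fold, adjusted p = 7.76e-08). The remaining genes of this group were *PIK3C2B*, a class II phosphoinositide 3-kinase (2.37-fold), *FGFBP2*, an FGF-binding protein (2.31-fold), the AMPK-related kinase *NUAK1* (2.25-fold), the Wnt pathway protein *DIXDC1* (log2 fold change 1.17) and *FAXDC2*, with a fatty acid hydroxylase domain (2.23-fold).

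Some genes switched between a low and a high value within a group, so their differences cannot be read as a response. Between the libraries of a group 40 genes differed by more than 3 on the log2 scale. Without these 40 genes 630 were raised and 129 lowered.

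**Figure D4:**
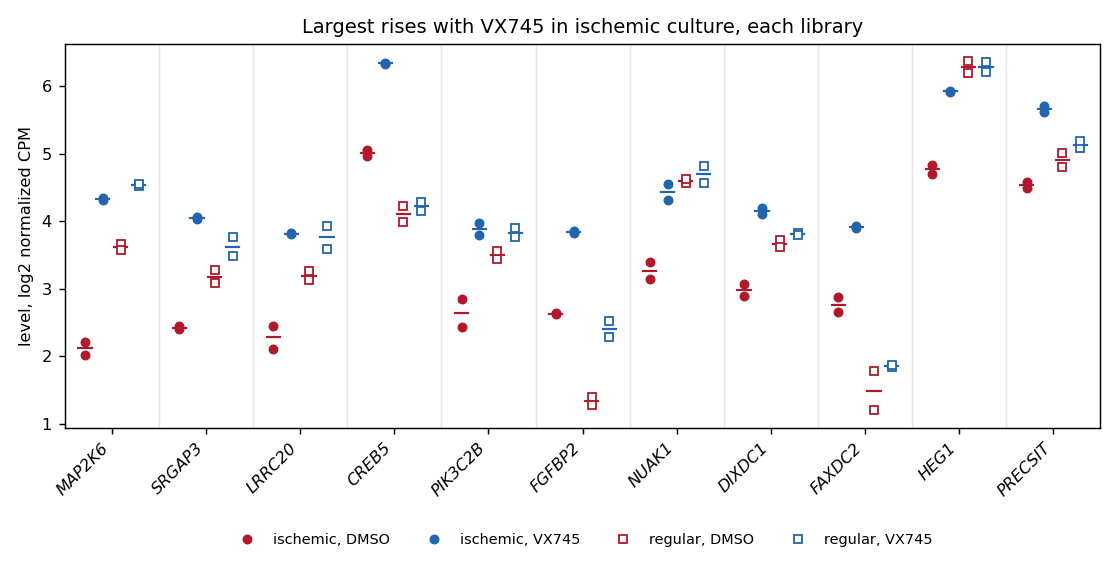
Levels (log2 normalized CPM) of the 11 genes reported with the largest rises under VX745 in ischemic culture, drawn as for the falls, with filled symbols for ischemic and open symbols for regular culture. *MAP2K6* rises from 2.02 and 2.21 to 4.32 and 4.35. The 11 genes were chosen to have both VX745 libraries above both ischemic DMSO libraries, so that separation is not a result.

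Interferon-stimulated genes were, of the 26 lists, the one with the most genes called raised. Of 20 measured members 5 were raised and 0 lowered (median 0.30). Over all genes 4.35% were raised, and 11.6% of those with a level between 0 and 3. *IFIT1*, which binds foreign RNA ends, was at -1.33 and -0.70 with DMSO and at 0.97 and 1.37 with VX745, from 8 and 16 to 62 and 78 reads (log2 fold change 2.19 ± 0.26, adjusted p = 1.23e-05). *IFIT2* (log2 fold change 1.44, adjusted p = 0.00071) and *IFIT3* (0.83, adjusted p = 0.000477) rose with it. *GBP2*, a guanylate-binding protein, was at 2.39 and 2.28 with DMSO and at 3.64 and 3.65 with VX745 (log2 fold change 1.31, adjusted p = 2.68e-07). *OASL* (1.09, adjusted p = 0.00846) was at -0.95 and -1.17 with DMSO and at -0.16 and 0.22 with VX745, and its call was lost without DMSO replicate 2 (0.98) or VX745 replicate 2 (0.90) and after quantile normalization (0.83). The list was not uniform. *ISG15* (0.39), *MX1* (0.53) and *IRF9* (-0.04) did not pass, and most of the genes called were weakly expressed.

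Beside 4.35% raised over all genes, 3 of 18 targets of YAP, the effector of the Hippo pathway, were raised and 0 lowered (median 0.13). These were *CCN2*, *FJX1*, a homologue of the fly gene four-jointed (3.27 and 3.40 with DMSO, 4.19 and 4.26 with VX745, adjusted p = 3.61e-05), and *GADD45B*, and the target *CCN1* passed below the fold threshold (0.39). *GADD45B*, a stress sensor that binds the p38 activator MTK1, was at 5.43 and 5.44 with DMSO and at 6.37 and 6.35 with VX745 (log2 fold change 0.92, adjusted p = 4.28e-06). Its relative *GADD45A* was at 6.71 and 7.03 with DMSO and at 7.61 and 7.54 with VX745 (0.71, adjusted p = 1.09e-05), or 0.55 and no call without DMSO replicate 1. They were the 2 genes called among 14 measured genes of p53 and growth arrest, and *CDKN1A*, the cell cycle inhibitor p21, passed as lower by 0.22 on the log2 scale (log2 fold change -0.22).

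Of 21 measured TGF-beta targets 3 were raised and 2 lowered, beside 4.35% raised and 0.906% lowered over all genes. The raised ones were *CCN2*, the matrix protein *LTBP2* (log2 fold change 0.63, or 0.58 and no call without VX745 replicate 1) and the inhibitory *SMAD6* (0.63, or 0.41 and no call after quantile normalization). *INHBA*, the activin A subunit that follistatin binds, was at 7.21 in both DMSO libraries and at 6.57 and 6.48 with VX745 (log2 fold change -0.68, adjusted p = 7.15e-07, or -0.56 and no call with totals as the scale). *ID3*, an inhibitor of bHLH factors, was at 6.44 and 6.62 with DMSO and at 6.01 and 5.79 with VX745 (-0.63). It lost its call without DMSO replicate 2 (-0.54) or VX745 replicate 2 (-0.52) and under both other scalings. Of 14 measured members of the BCL2 family 2 were raised and 0 lowered. *BCL2A1*, an antiapoptotic member, was at 3.28 and 3.29 with DMSO and at 4.16 and 4.32 with VX745 (log2 fold change 0.95, adjusted p = 7.07e-05). *BMF*, a proapoptotic BH3-only member, was at 0.96 and 1.23 with DMSO and at 1.76 and 1.65 with VX745 (0.61, adjusted p = 0.00637), and lost its call without DMSO replicate 1 (0.47) or VX745 replicate 1 (0.55) and after quantile normalization (0.40). *MCL1* (0.09), *BAX* (0.01) and *BCL2L11* (0.08) did not pass.

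Cell cycle genes changed by small amounts. Of 30 mitosis genes 0 were called either way (median 0.01, range -0.25 to 0.26). Of 29 genes of DNA replication 1 was lowered and 0 raised (median -0.11, or 0.01 with totals as the scale), and 9 passed as lower and 0 as higher at any size. In the first experiment ischemia itself lowered 12 of these 29 genes at least 2-fold and raised 0. The called gene was *CCNE1*, cyclin E1, at 2.93 and 2.90 with DMSO and at 2.36 and 2.25 with VX745 (log2 fold change -0.61, adjusted p = 0.000795), lost without VX745 replicate 2 (-0.55) and with totals as the scale (-0.49). Of 23 measured sterol synthesis genes 1 was lowered and 0 raised. It was *INSIG1*, which holds SREBP in the ER, at 6.45 in both DMSO libraries and at 5.56 and 5.57 with VX745 (log2 fold change -0.89, adjusted p = 4.68e-07), while *HMGCS1* (-0.13) did not pass. Of 12 fatty acid synthesis genes and of 18 measured actin and SRF targets 0 were called either way. At any size 4 of the former passed as lower and 3 as higher, and 6 of the latter as lower and 1 as higher. Of 19 measured matrix proteases and their inhibitors 1 was lowered and 0 raised, namely *TIMP3*, an inhibitor of metalloproteinases, at 9.02 and 9.07 with DMSO and at 8.16 and 8.13 with VX745 (log2 fold change -0.90, adjusted p = 3.93e-08). Of 11 measured genes of the insulin-like growth factor axis 1 was lowered, which was *IGFBP3*, and 1 raised, which was the adaptor *IRS1* (4.26 and 4.31 with DMSO, 4.96 and 4.98 with VX745, adjusted p = 4.27e-06).

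The same compound gave far fewer calls in regular culture, where 9 genes were raised (0.0642%) and 5 lowered (0.0357%). The raised genes were *MAP2K6*, *FGFBP2*, *CYTH4*, *TMEM255A*, *GAS6-AS1*, *LINC01583*, *LBH*, *PPFIA4* and *RIMS3*, and the lowered ones *CXCL8*, *GDF15*, *IL1A*, *INTS3* and *MAGED4*, all named because they were called. The first 5 raised and the first 3 lowered were also called in ischemic culture. These counts rest on single libraries. Without regular DMSO replicate 1, 73 were raised and 70 lowered. The raised count was 3 without regular DMSO replicate 2, 4 without regular VX745 replicate 1 and 2 without regular VX745 replicate 2, and the lowered count was 3 without regular VX745 replicate 1. Among the 610 genes raised in ischemic culture the median log2 fold change in regular culture was 0.12, and among the 127 lowered genes it was -0.08.

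The difference between cultures was tested gene by gene as the interaction of VX745 and culture, which shares no library between its arms. It passed for 1653 of 14024 genes (11.8%), for 292 of the 610 raised genes (47.9%) and for 83 of the 127 lowered genes (65.4%). These genes were called in 1 arm of the same interaction, so their shares are a description. The whole count was unsteady, with 739 genes without ischemic DMSO replicate 1, 601 and 786 without ischemic VX745 replicates 1 and 2, 891 without regular DMSO replicate 2 and 840 without regular VX745 replicate 1. The 5 genes at the smallest adjusted p were *IGFBP3*, *GPRC5A*, *ENC1*, *NR4A1* and *DDIT4*. *IGFBP3* was at 4.24 and 4.29 with DMSO and at 4.13 and 3.97 with VX745 in regular culture, and its effect was more negative in ischemic culture by 1.44 on the log2 scale (difference -1.44 ± 0.09, adjusted p = 1.23e-07). *NR4A1* had a similar level in regular DMSO libraries, at 6.96 and 7.10, and with VX745 it was at 6.75 and 6.84 there (difference -1.15, adjusted p = 7.28e-06). *DDIT4* was at 7.48 and 7.54 with DMSO and at 7.55 and 7.54 with VX745 in regular culture (difference -0.85, adjusted p = 9.43e-06).

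*ENC1*, an actin-associated Kelch protein, was at 5.30 and 5.31 in ischemic DMSO and at 6.20 and 6.13 in ischemic VX745, and at 7.22 and 7.27 against 7.11 and 7.22 in regular culture (difference 0.94, adjusted p = 7.28e-06). *MAP2K6* responded in both cultures. In regular culture it was at 3.67 and 3.57 with DMSO and at 4.52 and 4.56 with VX745 (log2 fold change 0.92 ± 0.10, adjusted p = 0.000268), and the ischemic effect was larger by 1.30 (adjusted p = 6.94e-05). *CXCL8* likewise fell in regular culture, from 6.23 and 6.21 to 5.61 and 5.54, by less than in ischemic culture (difference -0.74, adjusted p = 0.00115). For *IL1A* (difference -0.20, adjusted p = 0.52) and *FGFBP2* (0.14, adjusted p = 0.675) no difference between the cultures was detected, with standard errors of 0.18 and 0.19. Over all genes the interaction passed as more negative in ischemic culture for 842 (6.0%) and as more positive for 811 (5.78%). By list, it was more negative for 5 of 18 inflammatory genes (1 more positive), 11 of 25 hypoxia targets and 11 of 22 glycolysis genes. The same held for 13 of 29 ATF4 and CHOP targets and 7 of 11 heat shock genes. Of the hypoxia, glycolysis, ATF4 and CHOP, and heat shock lists 0 genes were more positive. Of 25 immediate early genes the interaction was more negative for 4 and more positive for 4. The interaction was more positive for 6 of 18 YAP targets (0 more negative), 6 of 21 TGF-beta targets (2 more negative) and 5 of 20 genes of the p38 cascade (1 more negative).

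**Figure D5:**
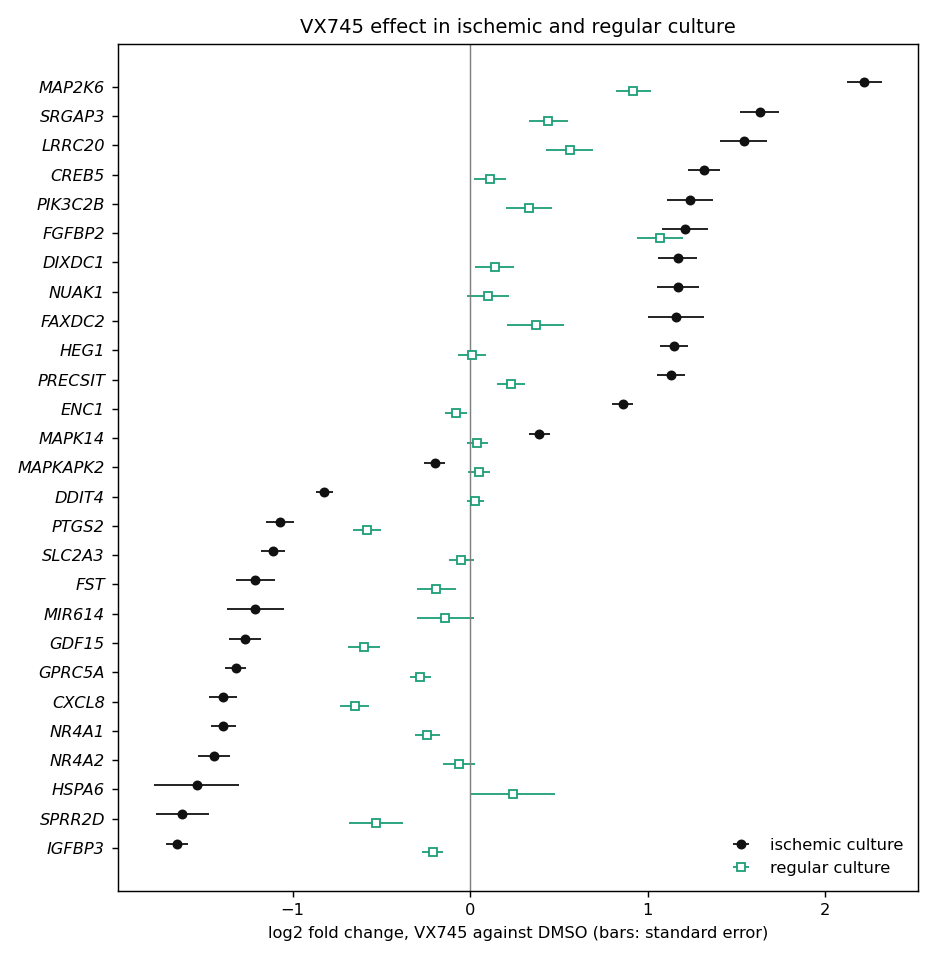
Log2 fold change of VX745 against DMSO (horizontal axis, bars are standard errors) in ischemic culture (filled) and regular culture (open) for the genes with the largest changes, those leading the interaction, *MAPK14* and *MAPKAPK2*. *IGFBP3* stands at -1.65 in ischemic and -0.21 in regular culture, and *FGFBP2* lies at 1.21 and 1.07.

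The genes lowered by VX745 were often genes that ischemia induced. Genes induced or repressed were defined in the first experiment, which shares no library with the VX745 comparison, by a change of at least 2-fold with the adjusted p under 0.05. There 11.3% of genes were induced and 9.1% repressed. Of 13475 genes in both tables VX745 lowered 0.913% and raised 4.16%. Of 1499 ischemia-induced genes VX745 lowered 59 (3.94%) and raised 48 (3.2%), and the 59 are 48.0% of the 123 lowered genes in both tables. Of 1222 ischemia-repressed genes it raised 196 (16.0%) and lowered 9 (0.736%), and the 196 are 35.0% of the 560 raised genes. These shares were not matched for level. VX745 raised 11.6% of all genes with a level between 0 and 3 and 0.423% of those above 6. The part of low levels in the 16.0% was not tested. The 196 became 103 after quantile normalization and 325 with totals as the scale. Without the fold threshold 24.9% of the induced genes passed as lower against 15.5% of all, and 30.4% of the repressed genes as higher against 14.2% of all. The typical size was small, since the median log2 fold change was -0.08 over the induced and 0.20 over the repressed genes. Several of the genes above changed strongly in the first experiment. *SPRR2D* rose there by 7.12 on the log2 scale, *IGFBP3* by 6.71, *GDF15* by 6.14, *SLC2A3* by 5.70 and *PTGS2* by 5.32. *SLC2A3*, at 7.12 and 7.18 with VX745 in ischemic culture, stayed far above its level of 3.08 and 2.87 in regular DMSO. *MAP2K6* (-2.46) and *ENC1* (-3.13) fell with ischemia. *NR4A1* (-0.41) and *NR4A2* (0.27), in contrast, were not among the induced genes.

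MK25 was compared with the same ischemic DMSO libraries, so the 2 sets of fold changes are not independent, and the doses named for the compounds differ. MK25 raised 985 genes (7.02%) and lowered 371 (2.65%) in ischemic culture. Over the 610 genes raised by VX745 the median log2 fold change was 0.73 with MK25 and 0.8 with VX745. Over the 127 lowered genes it was -0.65 with MK25 and -0.82 with VX745. Both medians are a description, since the DMSO libraries are shared. MK25 lowered 9 and raised 3 of 18 inflammatory genes, and lowered 12 and raised 1 of 25 immediate early genes. *CXCL8* was at 7.73 and 7.53 with MK25 (log2 fold change -1.23, with VX745 -1.39), and *GPRC5A* was at 7.82 and 7.83 (-1.26, with VX745 -1.32). *IGFBP3* was at 8.44 and 8.42 with MK25 (-0.62, with VX745 -1.65). *SLC2A3* was at 8.12 and 8.17 (-0.12, adjusted p = 0.172) and *GDF15* at 8.94 and 8.75 (-0.10, adjusted p = 0.4), and neither passed with MK25. Some genes had fold changes of opposite sign. *CREB5* was at 3.99 and 4.14 with MK25 (-0.95, with VX745 1.32), *JUN* at 8.08 and 7.99 (-0.59, with VX745 0.79) and *INSIG1* at 8.21 and 8.28 (1.79, with VX745 -0.89). Of the sterol synthesis list 15 genes were raised with MK25 (median 0.91), and 0 with VX745 (median -0.09).

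The 3 largest differences among genes with every library of a group at or under 3 reads were in *CLIC1*, *MLLT6* and *DPY19L2P4*, none of which passed the test. *CLIC1*, a chloride channel gene of the major histocompatibility region, had 1369 and 3 reads with DMSO and 2 and 1 with VX745 (adjusted p = 0.0637), so a single DMSO library carried the difference. *MLLT6* had 3 and 3 reads with DMSO and 8 and 61 with VX745 (adjusted p = 0.0647). *DPY19L2P4*, a pseudogene, had 1 and 2 reads with DMSO and 7 and 8 with VX745 (adjusted p = 0.0503). Each of the 3 passed under other settings. *CLIC1* passed under the crossed block and without DMSO replicate 2, where the library with 1369 reads stood alone for its group. *MLLT6* passed under the replicate block, the crossed block, with only the 4 libraries compared or only the 6 ischemic libraries in the fit, and without VX745 replicate 1 (3.48). *DPY19L2P4* passed without the variance trend, under both voom fits (1.90 and 1.78), under the crossed block and when genes whose libraries within a group lay over 3 apart were left out.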

How the data were processed

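RNA of LN229 cells was sequenced after SMART-Seq mRNA HT and Nextera XT library preparation. The authors aligned paired reads to GRCh38 with HISAT2 in Galaxy, and edgeR is named for the comparisons. The counting program is not given in the sources used here. The deposited values are log2 normalized CPM for 14024 genes in the second experiment and 13559 in the first, listed by Entrez identifier, of which 99.3% and 99.4% matched a RefSeq symbol. They were used as deposited. Each includes an offset of about 2 reads that shrinks the fold changes of weakly expressed genes. Once the logarithm was undone, 100% of values lay on whole read counts (within 0.1 reads), which gave the depth. The floor of 3 reads covers counting error only, while the standard errors come from the spread between libraries in the fit. Column names ending in S1 and S2 were read as replicates 1 and 2, and 0 columns were left out.

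Since the values are not counts, limma 3.58.1 (R 4.3.3) with a trend of the variance was used, with 1 mean per group over all 12 libraries of the second experiment (6 residual degrees of freedom) and two-sided p-values adjusted by Benjamini-Hochberg over all genes. The first experiment was fitted apart. In data simulated for this comparison (14024 genes) the test called 100 of 100 genes with a log2 change of 2, 99 of 100 with a log2 change of 1, and 0 unchanged genes. The changes were placed only in genes with a mean of over 100 reads, and 1 dispersion was used for all genes. These shares therefore do not cover weakly expressed genes, which were many of those that rose.

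The comparison, the 26 gene lists and the 6 lists of cell type markers were chosen with earlier results of these data known. Genes named are the 12 largest rises and 12 largest falls with a mean level of at least 3 and groups apart, called members of the lists, the 5 leading interaction genes, *MAPK14* and *MAPKAPK2*, and 3 genes at the floor, and 1 gene that this rule selects is not reported here. 3′ UTRs came from the GENCODE annotation of GRCh38. Promoter windows were found for 64.6% of the lowered and 71.8% of the raised genes, under the 80% asked for, so no promoter motif is given. Alternatives changed the thresholds, the low-value filter, the scaling (median, quantile, totals), the variance trend, the libraries in the fit and the replicate block, or left out each library. Voom on the recovered reads with the deposited scaling, a crossed block and the removal of genes over 3 apart within a group were added after seeing the data. Plots used Python 3.11.15.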

Additional observations from a re-analysis of the deposited data

Results flagged for a closer look

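For 56 of the 74 genes named in the report, the effect of VX745 differed between ischemic and regular culture by limma's interaction test over all 14024 genes (adjusted p under 0.05). The difference was more negative in ischemic culture for 30 of them and more positive for 26. These genes were named mainly for their change in ischemic culture, so the count is a description, beside 11.8% of all genes that passed the interaction. Values in parentheses are the log2 effect in ischemic culture minus that in regular culture, with 2 libraries in each of the 4 groups.

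Among secreted and membrane proteins and their regulators the differences were *IGFBP3* (-1.44), *SPRR2D* (-1.09), *CXCL8* (-0.74), *GPRC5A* (-1.04), *GDF15* (-0.67), *MIR614* (-1.07), *FST* (-1.01), *PTGS2* (-0.5), *CSF2* (-1.05), *IL11* (-0.55), *INHBA* (-0.66), *NFKBIZ* (-0.6), *TIMP3* (-0.68). Of transcription regulators and other regulators of signalling and the cell cycle, the differences were *NR4A2* (-1.38), *NR4A1* (-1.15), *DUSP10* (-0.49), *EGR2* (-0.66), *ID3* (-0.63), *KLF5* (-0.86), *CCNE1* (-0.63). Of stress and metabolic genes they were *HSPA6* (-1.77), *SLC2A3* (-1.06), *DDIT3* (-0.88), *HMOX1* (-0.79), *HSPA8* (-0.62), *DNAJB1* (-0.92), *INSIG1* (-0.81), *ANGPTL4* (-1.04), *DDIT4* (-0.85), *XBP1* (-0.55).

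Among signalling genes with a more positive effect in ischemic culture the differences were *MAP2K6* (1.3), *SRGAP3* (1.18), *CREB5* (1.21), *PIK3C2B* (0.91), *NUAK1* (1.07), *DIXDC1* (1.03), *HEG1* (1.14), *GADD45A* (0.67), *HBEGF* (1.14), *IRS1* (0.81), *JUN* (0.93), *GADD45B* (0.7), *MAP2K3* (0.69), *MAPK14* (0.35). Of the other genes they were *LRRC20* (0.98), *FAXDC2* (0.79), *PRECSIT* (0.9), *OLIG2* (0.77), *CCN2* (0.98), *FJX1* (1.29), *GBP2* (0.88), *IFIT1* (1.55), *LTBP2* (0.4), *SMAD6* (0.73), *BCL2A1* (0.73), *ENC1* (0.94).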

How the results depend on the processing

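With a fold change of at least 2, 159 genes were raised and 34 lowered in ischemic culture, 4 and 2 in regular culture, 113 passed the interaction, and 18 induced genes were lowered and 59 repressed genes raised. With an adjusted p and no fold threshold these were 1958 and 2093, 25 and 22, and 373 and 371. With an unadjusted p and the fold threshold of 1.5 kept, 134 and 106 were called in regular culture. The interaction has no fold threshold in the report, and 782 genes passed it with an unadjusted p together with that threshold. Quantile normalization gave 322 raised and 192 lowered, 1026 interaction genes and 103 repressed genes raised, and of the genes called on the deposited scale 314 and 106 remained. Without the variance trend 4 and 1 were called in regular culture and 594 in the interaction. Voom scaled by totals gave 1086 raised and 81 lowered, 2 and 3 in regular culture, and 325 repressed genes raised. In regular culture, fitting only the libraries compared left 1 raised gene, voom with the deposited scaling gave 2 and 3, and the crossed block gave 10 lowered. The cause of these changes was not tested.

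With each library left out in turn, 457 to 602 genes were raised and 100 to 120 lowered in ischemic culture, 2 to 73 and 3 to 70 in regular culture, 601 to 2038 passed the interaction, and 46 to 60 induced genes were lowered and 151 to 201 repressed genes raised.

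The correlation of same-numbered deviations ranged from -0.27 to 0.32 over the 15 pairs of groups. It was -0.11 between ischemic DMSO and VX745 and 0.04 between the regular groups with DMSO and VX745. Such values cannot exclude a pairing of libraries in some groups, under the same or crossed numbers. The replicate block gave 601 raised and 124 lowered genes in ischemic culture, 9 and 7 in regular culture, 1657 in the interaction, and 58 and 192 for the induced and repressed genes, and it ended the call of *MAPK13* and gave *MLLT6* one. The crossed block gave 620 and 129 in ischemic culture.

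For the 74 genes named, 1052 of 1103 alternative values kept the direction and the side of the threshold, 39 lost and 12 gained a call, and 0 changed direction. Of 450 alternative medians of the 30 lists measured, 106 moved beyond the spread. The main limits are 2 libraries per group and few reads for the many weakly expressed genes that rose.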
